A study of Drosophila melanogaster with 24 samples.

Results

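The phototransduction genes described here were 10 genes of the Drosophila eye that encode arrestins, TRP channels and signalling enzymes or their scaffold, namely Arr1, Arr2, trp, trpl, norpA, ninaC, inaC, inaD, rdgC and rdgA. A chromatin immunoprecipitation (ChIP) peak of the clock proteins CLOCK (CLK) or CYCLE (CYC) was counted for a gene when the peak midpoint lay inside the gene or within 3 kb of it. The rule gave 35 peaks, out of 7810 peaks in all 6 deposited lists. Every one of the 10 genes had at least 1 peak, as had 57.2% of the 13922 protein-coding genes on the main chromosomes. The opsin genes were not among the 10.

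In fly photoreceptors, light turns rhodopsin into an active form that works through a Gq protein on a phospholipase C, the product of norpA, and so opens the cation channels encoded by trp and trpl. The scaffold protein INAD, from inaD, holds the phospholipase, the TRP channel and an eye protein kinase C from inaC together, and ninaC encodes a myosin III with a kinase domain. Arrestins, from Arr1 and Arr2, bind active rhodopsin and end its signal, the phosphatase from rdgC acts on rhodopsin, and the diacylglycerol kinase from rdgA turns over the lipid product of the phospholipase. CLK and CYC form a pair of bHLH-PAS activators that drive the daily cycle of clock gene transcription.

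Per the labels, there were 6 groups of GFP libraries, of CLK and of CYC from head, testis and ovary, with 2 libraries each, and each had an input group of 2 libraries from chromatin set aside before the antibody. All 24 libraries came from flies collected at ZT 10 h (ZT counts hours of the light cycle), 200 heads or 200 pairs of gonads were pooled for a biological replicate, and the antibody was against GFP. Genotype, strain, age and construct of the flies are not given in the sources used here, nor is a GFP library without a tagged protein. The sex of the flies that gave heads is not given either. Testes came from males and ovaries from females, so these tissues also differ by sex.

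The lists held 1016 CLK and 394 CYC peaks in head, 2491 CLK and 1583 CYC peaks in testis, and 351 CLK and 1975 CYC peaks in ovary. Each list stood for both replicates of a protein and tissue and held positions only, so the data carry no replicate error, no comparison between lists could be tested over samples, and read depth was unknown. Width, the end minus the start of a peak, was the only measure of a peak's size. The tissue labels could not be checked against marker genes, since no expression was measured. Heads and gonads were whole organs, so a peak cannot be traced to photoreceptors or to any other cell type.

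CLK in head and both proteins in testis had peaks at most of the 10 genes, while CYC in head and CLK in ovary each had peaks at 1 of them. CLK peaks of head lay at Arr1, trp, norpA, ninaC, inaC and rdgC, 6 of 10 genes, against 13.4% of all protein-coding genes. CYC peaks of head lay at norpA alone, against 6.38% of all genes. In testis, CLK peaks lay at Arr2, trp, trpl, ninaC, inaC, inaD and rdgC, 7 of 10 genes, against 28.9% of all genes. CYC peaks of testis lay at Arr1, Arr2, trp, trpl, inaC and rdgC, 6 of 10 genes, against 17.5% of all genes. In ovary, CLK had a peak at rdgA alone, against 2.86% of all genes, and CYC had peaks at rdgC and rdgA, a share of 20.0% that was close to the 17.1% of all genes. Peaks in at least 1 list, found at all 10, were also found at 57.2% of all genes. Peaks in 2 or more lists were found at 9 of 10, against 21.3%, and peaks in 3 or more lists at trp, inaC and rdgC, 3 of 10 against 6.21%. With each peak given to the nearest coding gene only, inaC was left with CLK of testis. The 10 genes were proposed with earlier results of these lists known, so these shares describe them and do not test them.

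**Figure D1:**
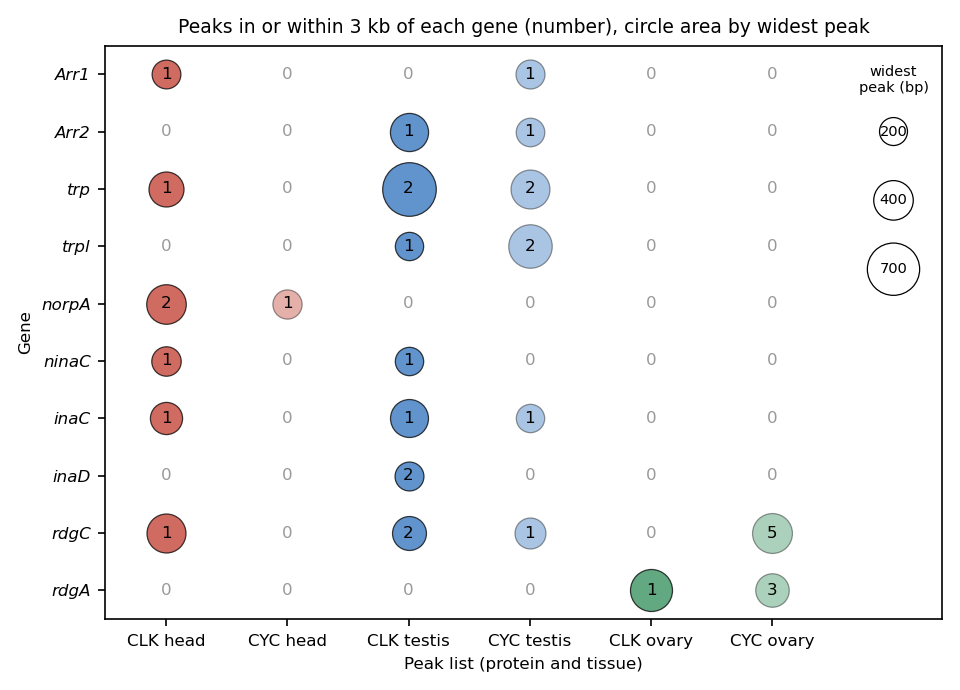
Number of peaks with a midpoint in or within 3 kb of each of the 10 genes (rows) in each of the 6 peak lists (columns), with the area of a circle proportional to the width in bp of the widest peak. Head and testis columns of CLK and the testis column of CYC are filled for 6, 7 and 6 genes, and the ovary columns are filled for rdgC and rdgA only.

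Long genes offer more room for a peak, and norpA, at 42.8 kb, and rdgA, at 122 kb, are longer than 97.1% and 99.6% of protein-coding genes. Among genes of 20 kb or less, which hold the other 8 members, CLK of head had peaks at 5 of 8 members against 12.0% of genes, CLK of testis at 7 of 8 against 28.2%, and CYC of testis at 6 of 8 against 16.8%. CYC of ovary had peaks at 1 of these 8 against 15.5%, and CYC of head and CLK of ovary had none against 5.97% and 2.27%. The 8 members were not matched by chromosome to these genes. All 8 lie on autosomes, while the genes of 20 kb or less include genes on X. Of all protein-coding genes on X, 0.91% had a CLK and 1.55% a CYC peak in testis. The 8 members were not matched by length either. Arr2 is longer than 38.9% of all protein-coding genes, and each of the others is longer than at least 62.2%, up to 91.5% for rdgC. Peaks were also shared with neighbours, as 23 of the 35 lay in or within 3 kb of another protein-coding gene, close to the 64.5% of all peaks near a gene that were near 2 or more. The midpoints of 9 lay inside such a neighbour, and the same share over all peaks was not counted, so this number has no background.

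**Figure D2:**
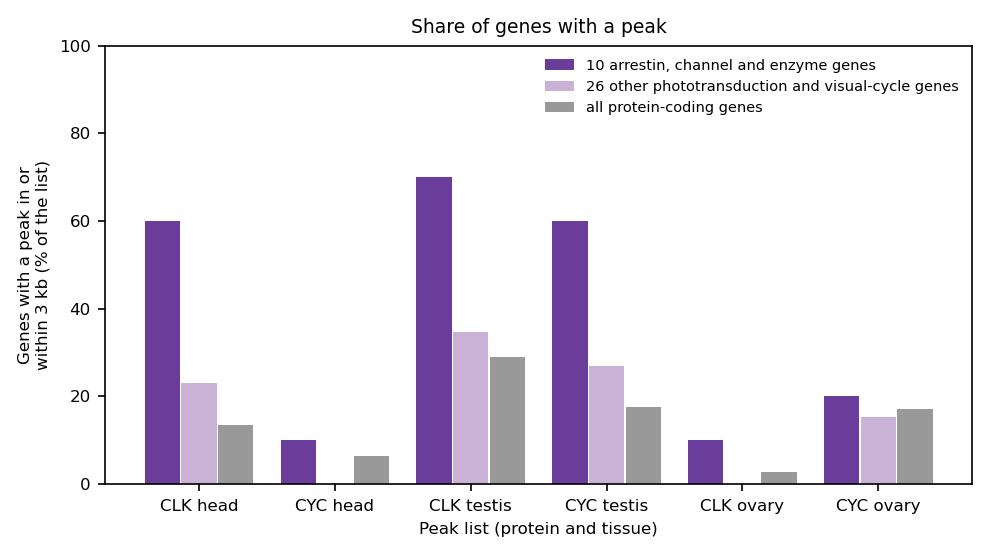
Percentage of genes with a peak midpoint in or within 3 kb, by peak list, for the 10 genes, for 26 other phototransduction and visual-cycle genes and for all 13922 protein-coding genes. The bars of the 10 genes reach 60.0%, 70.0% and 60.0% for CLK head, CLK testis and CYC testis, against 13.4%, 28.9% and 17.5% for all genes, and lie close to all genes for CYC ovary.

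norpA, the phospholipase C gene (X 4322626 to 4365408), was, of the 10 genes, the gene with peaks of both proteins in head, as 2.38% of all genes had. The CLK peak at X 4347534 to 4347935 was 401 bp wide and lay inside the gene, 17.7 kb from the nearest end. The CYC peak at X 4347583 to 4347802, 219 bp wide, lay wholly within it, with midpoints 42 bp apart. The CLK peak was wider than 80.4% of its list, the CYC peak wider than 17.5% of its own. A second CLK peak of head (X 4366341 to 4366601, 260 bp) had its midpoint 1.06 kb beyond the higher-coordinate end of norpA, inside the neighbouring gene CG3626. No testis or ovary peak met the rule at norpA, and a CYC peak of ovary lay just outside it, 3.35 kb from the lower-coordinate end.

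The channel gene trp (3R 29914521 to 29920289) had peaks in 3 lists. Its CLK peak of head (3R 29920217 to 29920531, 314 bp) reached across the higher-coordinate end of the gene, with the midpoint 85 bp beyond it. That midpoint lay within 3 kb of the neighbouring gene Jon99Ciii as well. In testis, a CLK peak inside the gene at 3R 29917572 to 29918308 was 736 bp wide and ranked 58 of 2491 in its list, which made it the widest of the 35 peaks. A CYC peak of testis (3R 29914752 to 29915141, 389 bp) lay at the opposite end of the gene from the head peak, 2.99 kb by midpoints from that CLK peak. It lay within 3 kb of CG31036 and Capa as well.

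Both proteins also had a testis peak beyond trp, inside Jon99Ciii, a gene of a tandem group of Jonah serine proteases. There the CLK peak (3R 29922446 to 29922829, 383 bp) held the whole CYC peak (3R 29922469 to 29922725, 256 bp), with midpoints 40.5 bp apart. These midpoints lay 2.35 and 2.31 kb from trp. Further CLK peaks of testis, 3.72 and 4.29 kb from trp and so outside the rule, lay inside the next protease gene, Jon99Cii. The Jon99C genes are paralogues, and whether reads could be placed among them was not tested.

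trpl, which encodes the second light-activated channel subunit (2R 9753697 to 9765518), had testis peaks only. The CLK peak (2R 9755602 to 9755807, 205 bp) was wider than 7.43% of its list. The inner CYC peak (2R 9757213 to 9757465, 252 bp) lay 1.63 kb away by midpoints, inside CG1690, a gene that lies within trpl. The other CYC peak (2R 9765982 to 9766467) was 485 bp wide, ranked 110 of 1583 and lay 0.707 kb beyond the higher-coordinate end, in or within 3 kb of CG1688 as well. No CLK peak of testis lay beside that wide CYC peak, the nearest being 10.5 kb away.

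The scaffold gene inaD (2R 22855688 to 22858794) had peaks in 1 list, CLK of testis. Both were 214 bp wide, at 2R 22857280 to 22857494 inside the gene and at 2R 22859823 to 22860037, 1.14 kb beyond its higher-coordinate end. Each was wider than 12.8% of the list. The inner peak lay within 3 kb of RpL23, a ribosomal protein gene, as well.

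inaC, the eye protein kinase C gene (2R 16898535 to 16901575), had peaks in 3 lists, at 3 places. CLK of head had a peak of 265 bp at 2R 16896702 to 16896967, 1.70 kb outside the lower-coordinate end. This head peak lay within 3 kb of the neighbouring gene CG8910 as well. CLK of testis had a peak of 369 bp inside the gene at 2R 16900069 to 16900438, wider than 77.5% of its list. CYC of testis had a peak of 206 bp at 2R 16895461 to 16895667, 2.97 kb outside the gene and inside CG8910. This was the peak closest to the limit of the rule from inside, while the closest from outside was a CYC peak of ovary 3.18 kb from rdgC. With each peak given to the nearest coding gene only, inaC kept its CLK testis peak. It then had no CLK head peak and no CYC testis peak.

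ninaC, the myosin III gene (2L 7377702 to 7384344), had CLK peaks only. The head peak (2L 7377535 to 7377757, 222 bp) reached across the lower-coordinate end, with its midpoint 56 bp outside the gene, and lay within 3 kb of Wnt10, which encodes a Wnt ligand. The testis peak (2L 7386912 to 7387118, 206 bp) lay 2.67 kb beyond the other end, inside CG5149. The midpoints of these peaks were 9.37 kb apart.

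Both arrestin genes had CYC peaks in testis, and the gene with a CLK peak in head was Arr1. At Arr1 (2L 18078269 to 18081307) the CLK peak of head (2L 18078065 to 18078277, 212 bp) reached across the lower-coordinate end, with its midpoint 98 bp outside the gene. The CYC peak of testis (2L 18080811 to 18081027, 216 bp) lay inside Arr1, 0.388 kb from the opposite end, and within 3 kb of ninaD, a scavenger receptor gene needed for visual pigment. At Arr2 (3L 8647261 to 8648936) CYC of testis had a peak inside the gene at 3L 8647509 to 8647719 (210 bp), and CLK of testis had one at 3L 8650014 to 8650387 (373 bp), 1.26 kb beyond the higher-coordinate end. Arr2 lies within Pex7, a peroxisomal import receptor gene, and Pex7 held both midpoints, so these peaks cannot be given to Arr2 alone.

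rdgC, the rhodopsin phosphatase gene (3L 20248080 to 20265554), had 9 peaks in 4 lists, the highest count of the 10, where 1.26% of all genes had peaks in 4 or more lists. It is 17.5 kb long, longer than 91.5% of genes, and per 10 kb of gene and flanks its 3.83 peaks were fewer than the 4.25 of trp. CLK of head had a peak of 389 bp inside the gene (3L 20258662 to 20259051), wider than 78.2% of its list. CLK of testis had peaks at 3L 20250982 to 20251199 (217 bp, inside) and at 3L 20266460 to 20266755 (295 bp, in the neighbour CG32228), and CYC of testis had a peak at 3L 20246813 to 20247059 (246 bp, 1.14 kb outside the lower-coordinate end). The 5 CYC peaks of ovary were between 223 and 408 bp wide, with 3 inside the gene and 2 beyond its ends.

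At rdgC, peaks of different tissues met once. The CYC ovary peak at 3L 20250787 to 20251099 and the inner CLK testis peak had 117 bp in common. The CYC ovary peak beyond the higher-coordinate end (3L 20265592 to 20265916, 324 bp) had its midpoint in the antisense gene asRNA:CR43876. The widest CYC ovary peak of the gene (3L 20257504 to 20257912, 408 bp) lay 1.15 kb by midpoints from the CLK head peak, with no bases in common.

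rdgA, the diacylglycerol kinase gene (X 8907068 to 9029476), had ovary peaks only, of both proteins, as 1.35% of all genes had. The CLK peak at X 8927970 to 8928422 was 452 bp wide, wider than 76.9% of its list, and the CYC peak at X 8927740 to 8928028 was 288 bp wide. They had 58 bp in common, with midpoints 312 bp apart, 21.1 and 20.8 kb from the nearest end of the gene. CYC peaks of ovary also lay at X 8922527 to 8922734 (207 bp) and, near the other end, at X 9028213 to 9028470 (257 bp), this last inside the long non-coding gene lncRNA:CR43836.

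**Figure D3:**
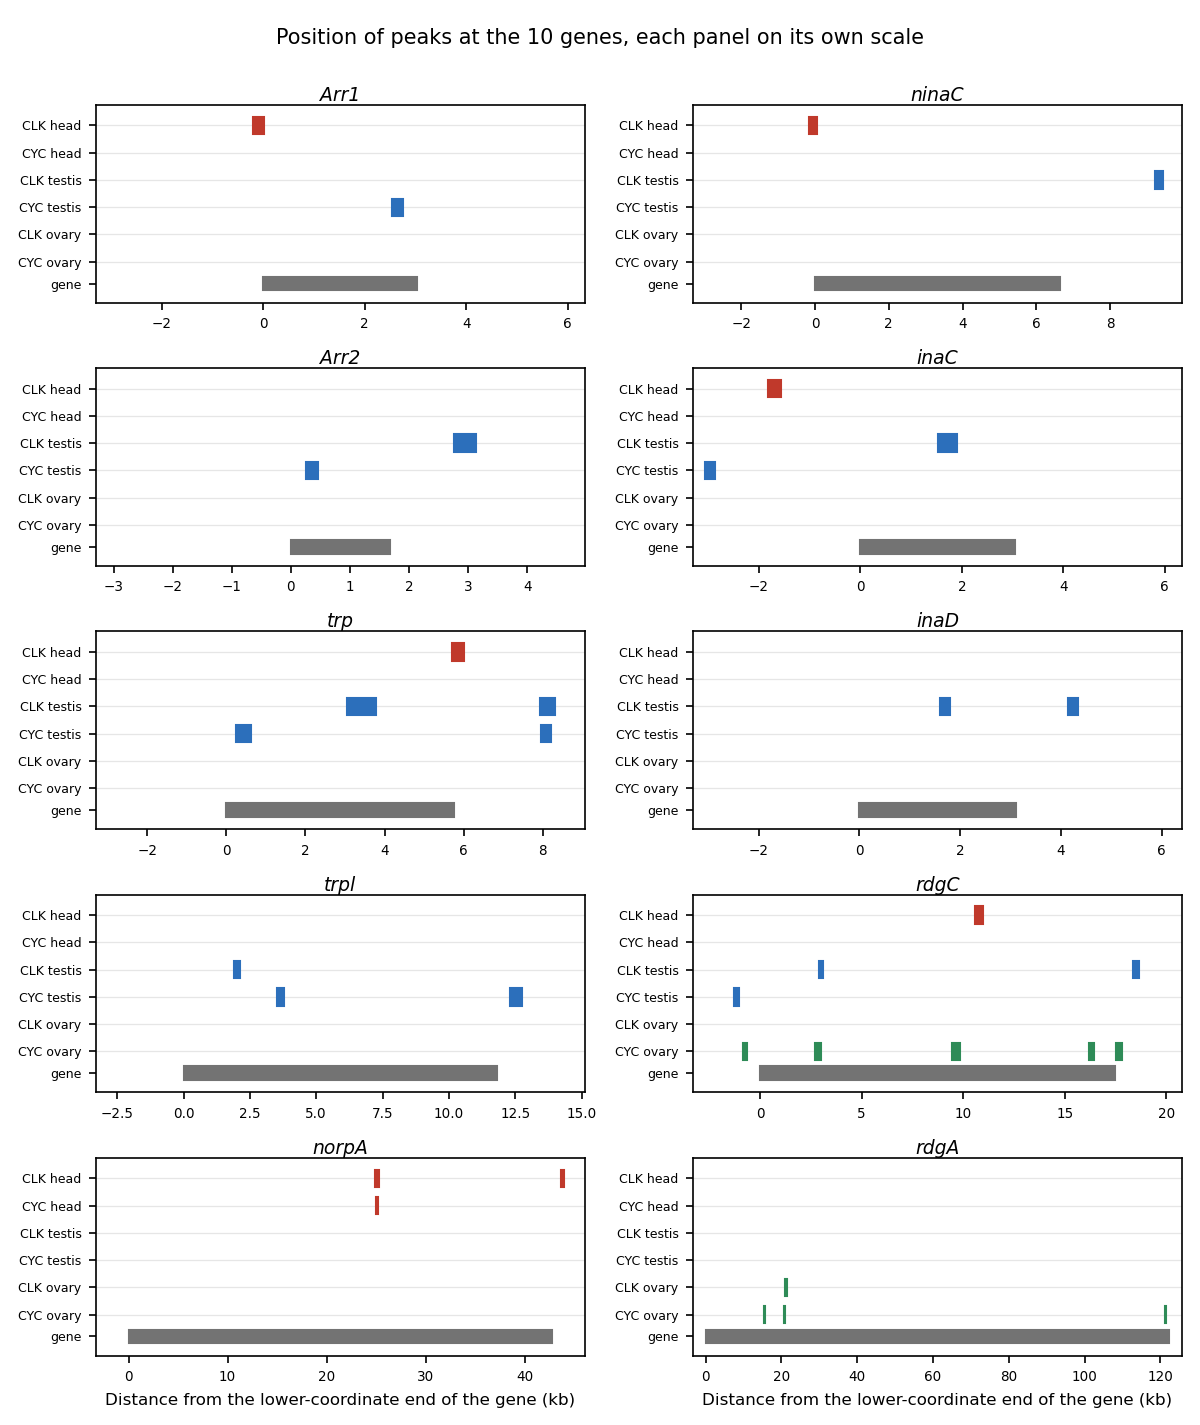
Position of the 35 peaks along the 10 genes, in kb from the lower-coordinate end of each gene (grey bar), with a row for each list and each panel on its own scale. Coloured bars are peaks (red head, blue testis, green ovary), drawn to scale with a thin outline. Peaks of both proteins line up within a tissue at norpA in head and beyond trp in testis, overlap by 58 bp in rdgA in ovary, and head peaks sit on a gene end at Arr1, trp and ninaC.

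CLK and CYC peaks met at 3 sites near these genes, counts too small to set apart from the shares of the whole lists. In head, 1 of 7 CLK peaks met a CYC peak, at norpA, against 11.5% of all CLK head peaks. In testis it was 1 of 10, in the protease gene beyond trp, against 8.91% of the list, and in ovary it was the single CLK peak, in rdgA, against 31.3%, which no longer counted with reciprocal overlap of 50% or with midpoints within 200 bp (0 of 1 in each). Counted over CYC peaks, the same sites were the single CYC peak of head (29.4% of all CYC head peaks met a CLK peak), 1 of 8 in testis (14.3%) and 1 of 8 in ovary (5.11%). In testis 5 genes, Arr2, trp, trpl, inaC and rdgC, had peaks of both proteins, against 7.6% of all genes, but at 4 of them the peaks lay apart. The smallest distance between CLK and CYC midpoints of testis was 2.59 kb at Arr2, 1.63 kb at trpl, 4.69 kb at inaC and 4.15 kb at rdgC.

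At the level of genes, trp, ninaC, inaC and rdgC had CLK peaks in both head and testis, 4 of 10 genes against 4.65% of all genes. The midpoints of the closest pair at these genes were 2.26, 9.37, 3.42 and 7.75 kb apart. With each peak given to the nearest coding gene only, trp and rdgC kept CLK peaks in both tissues, while ninaC and inaC did not. The share over all genes was not counted under that rule. Over the whole lists, 3.84% of CLK head peaks and 4.31% of CYC head peaks met a peak of another tissue, and none of the 8 head peaks here did, a count too small to set apart from those shares. Of the testis peaks, 1 of 10 CLK peaks (9.84% of the list) and 0 of 8 CYC peaks (15.1%) met a peak of another tissue. In ovary, 0 of 1 CLK peak (27.6%) and 1 of 8 CYC peaks (15.3%) did.

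CLK peaks of head lay on gene ends at 3 of the 10 genes. The CLK peaks at Arr1, trp and ninaC reached across an end of the gene, and the second CLK head peak of norpA reached across an end of CG3626. That made 4 of 7 CLK head peaks across an end of some protein-coding gene, against 25.2% of all CLK head peaks. This count was too small to set apart from that share. The CYC head peak did not, against 30.7% of its list. In testis 0 of 10 CLK peaks (6.18% of the list) and 2 of 8 CYC peaks (4.49%) did so, and in ovary 0 of 1 CLK peak (5.7%) and 1 of 8 CYC peaks (11.2%). Those 3 gonad peaks reached across ends of neighbouring genes, not of the 10 genes. The gene table gave no strand, so start and end of transcription were not told apart.

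The tissues also differed by chromosome. All 8 autosomal genes had a testis peak of CLK or CYC, against 45.7% of all autosomal protein-coding genes, and norpA and rdgA, the 2 genes on X, had none. The testis lists as a whole had few peaks on X, 34 of 2491 for CLK and 56 of 1583 for CYC, and 0.91% and 1.55% of protein-coding genes on X had a testis peak. The share of peaks on X was 14.5% and 10.4% for CLK and CYC in head and 30.5% and 20.6% in ovary. The absence of testis peaks at norpA and rdgA therefore cannot be told apart from the scarcity of X peaks in the testis lists.

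Peaks at the 10 genes were more often narrow than wide for their lists. Widths ran from 205 to 736 bp with a median of 257 bp, and 13 of 35 were wider than at least 50% of their own list. The narrowest peak of each list was 199 bp wide, so the narrowest peaks here lay close to that floor. The testis peaks of trp (CLK, 736 bp) and trpl (CYC, 485 bp) were the 2 peaks wider than 90% of their lists. Counts fell with a stricter rule on width, and in the widest 50% of each list 3 genes remained for CLK of head (7.21% of all genes), 4 for CLK of testis (16.3%) and 2 for CYC of testis (9.58%). With midpoints inside the gene only, CLK of head was left with norpA and rdgC, 2 of 10 against 5.23% of all genes, and with all lists at the size of the shortest CLK of testis was left with trp, 1 of 10 against 5.14%.

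**Figure D4:**
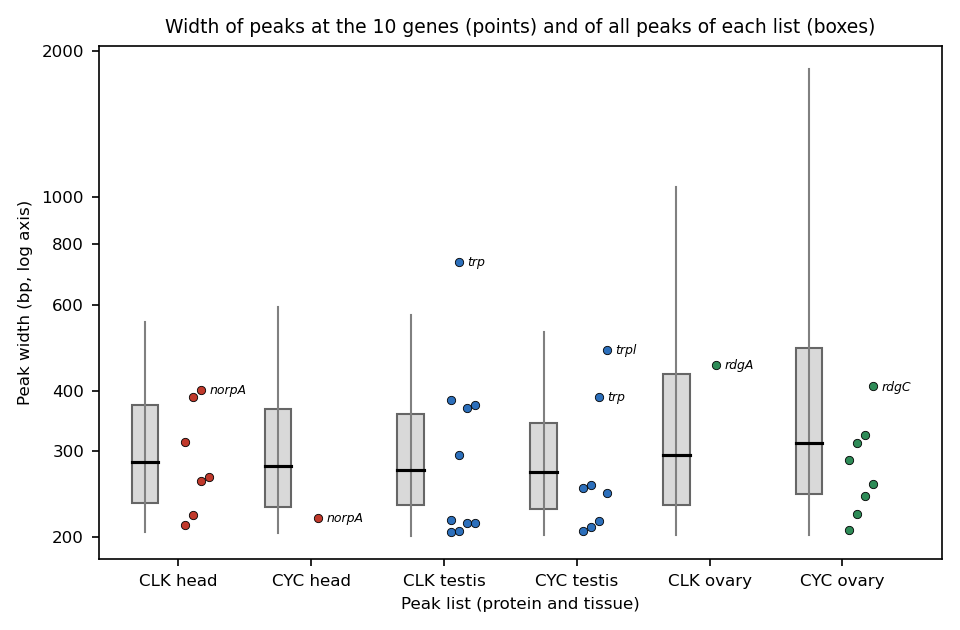
Peak width in bp on a log axis for the 35 peaks at the 10 genes (points) beside all peaks of the same list (box from the lower to the upper quartile with the median as a line, whiskers from percentile 5 to percentile 95). The CLK testis peak inside trp, at 736 bp, is the highest point, and most other points lie within or below the boxes.

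Of 26 other genes of phototransduction and the visual cycle, 17 had at least 1 peak, where 57.2% of all genes had, and 7 had peaks in 2 or more lists, where 21.3% had. By list, 6 of 26 had CLK peaks in head (23.1% against 13.4% of all genes), 9 had CLK peaks in testis (34.6% against 28.9%), 7 had CYC peaks in testis (26.9% against 17.5%) and 4 had CYC peaks in ovary (15.4% against 17.1%). None had a CYC peak in head or a CLK peak in ovary, against 6.38% and 2.86% of all genes. The CYC testis peak counted for ninaD, among these 26, was the same peak as that counted for Arr1. The difference between these 26 genes and the 10 was not tested.

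Among the 7 genes with peaks in 2 or more lists were those of the G protein that couples rhodopsin to the phospholipase, while 9 of the 26, among them rdgB, Pis, laza and inaE, had no peak. Gbeta76C, the beta subunit of the eye, had a CLK peak of head inside the gene (3L 19689217 to 19689641, 424 bp), and CYC peaks of testis (3L 19685845 to 19686059, 214 bp) and ovary (3L 19685784 to 19686179, 395 bp) that lay one within the other outside it. Galphaq, the alpha subunit, had testis peaks of CLK (2R 12623963 to 12624217, 254 bp) and CYC (2R 12618457 to 12618777, 320 bp). Ggamma30A, the gamma subunit, likewise had testis peaks of CLK (264 bp, inside) and CYC (208 bp, outside).

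The other genes with peaks in 2 or more lists act in lipid, calcium and pigment supply. PIP5K59B, a phosphatidylinositol phosphate kinase gene, had CLK peaks on either side in head (364 and 412 bp) and inside in testis (354 bp). Calx, the sodium-calcium exchanger gene, had a CLK peak of testis (513 bp) and a CYC peak of ovary (569 bp) near opposite ends. ninaB, whose product cleaves carotenoids to make the chromophore, had a CLK peak of head (329 bp), 2 CLK peaks of testis (334 and 245 bp) and a CYC peak of testis (249 bp). santa-maria, a scavenger receptor gene for carotenoid uptake, had a CLK peak of head (264 bp) and 2 CYC peaks of ovary (199 and 277 bp).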

How the data were processed

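The authors deposited 6 peak lists without header, holding chromosome, start and end in bp. The submitters' processing notes name build dm6 and list MACS2, which calls peaks, beside ChIPseeker, deepTools, Picard, SAMtools, Bowtie2 and fastp. Their versions, thresholds and handling of replicates are not given in the sources used here. Lists were matched to tissues by the initials in their names, and starts may count from 0 or from 1. Gene positions were those of RefSeq for assembly Release 6 plus ISO1 MT, in a table that has no strand, exons or sequence, so the planned promoter motif search was not run and no sequence is printed. All 10 symbols matched, as did 26 other pathway genes, 3 of them by synonym. Peaks were counted in Python 3.11.15 with pandas 2.3.3 by midpoint, in a window of 3 kb, and overlap meant at least 1 bp in common. Counting was tested on simulated data. No test was run: each count is set beside the same share over all protein-coding genes or all peaks. The 10 genes and all lists were chosen with earlier results of these data known, so their counts are descriptions. Named genes were the 10 genes, coding genes that hold a midpoint, and pathway genes with peaks in 2 or more lists. Named after their values were seen were rdgB, Pis, laza, inaE, RpL23, Wnt10, CG1688, CG31036, Capa, ninaD, Jon99Cii and 2 non-coding genes.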

Additional observations from a re-analysis of the deposited data

How the results depend on the processing

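No paired analysis was possible because each list stands for both replicates of a protein and tissue, and for the same reason no replicate could be left out. Of 57 alternative values for the number of the 10 genes with a peak and for the CLK peaks that met a CYC peak, 45 stayed within 1.5 times the reported count. With midpoints inside the gene only, CLK of head had 2 genes, norpA and rdgC. In the widest 50% of each list, CLK of head had 3 genes, CYC of head 0 (3.17% of all genes), CLK of testis 4, CYC of testis 2, CLK of ovary 1 as before (1.47%) and CYC of ovary 1 (7.89%). In the widest 351 peaks of each list, the size of the shortest, an alternative chosen after seeing the data, CLK of head had 2 genes (4.83% of all genes), CLK of testis 1 (5.14%), CYC of testis 2 (4.42%) and CYC of ovary 0 (2.49%). The peaks of CLK and CYC in rdgA no longer counted as meeting with reciprocal overlap of 50% (0 peaks) or midpoints within 200 bp (0 peaks). Fewer peaks remained by construction in the settings on width. Windows of 1 and 5 kb and any base within 3 kb moved none of these counts by over 1.5 times. Nor did the nearest gene only or leaving out regions found in at least 4 lists. The counts of genes with peaks in 2 or more lists were not among these 57 values. Read depth was unknown, and a missing peak may be a site below the authors' threshold.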

Other observations

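For the genes with peaks in 3 or more lists, the genes with peaks in exactly the same lists were counted, and the 3 with the most similar widths of the widest peak per list were looked up. trp and inaC had peaks in CLK head, CLK testis and CYC testis, as did 101 other genes than each of them. Nearest to trp in width was CG13970, with 344, 701 and 272 bp in these lists and a summed absolute difference of 0.718 on the log2 scale, followed by Scp2 (0.884) and CG30015 (0.999). Nearest to inaC, which lies on 2R, were CG13667, Tpt and mkg-p, all on 3L. They had the same widths of 246, 359 and 222 bp (0.255 each). Whether these 3 genes were counted from the same peaks was not tested, so they are not given as separate matches. rdgC, with peaks in CLK head, CLK testis, CYC testis and CYC ovary, shared its lists with 28 other genes, and the nearest were CG8677 (0.707), CG8765 (0.731) and bowl (0.936), a zinc finger transcription factor gene.

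Counted per length of gene and flanks, the 10 genes had 2.52 CLK peaks per 100 kb in head, 3.6 in testis and 0.36 in ovary, against 0.937, 2.16 and 0.263 over all protein-coding genes with overlapping windows merged. For CYC the 10 genes had 0.36 peaks per 100 kb in head, 2.88 in testis and 2.88 in ovary, against 0.367, 1.29 and 1.61 over all genes. Without norpA and rdgA, the other 8 genes had 4.97 CLK peaks per 100 kb in head, 9.94 in testis and 0 in ovary, against 1.24, 3.31 and 0.326 over all genes of 20 kb or less. Their CYC peaks per 100 kb were 0 in head, 7.95 in testis and 4.97 in ovary, against 0.528, 1.94 and 2.29, and those of ovary came from rdgC alone. These 8 genes are all autosomal, while the genes of 20 kb or less include genes on X, where testis peaks were scarce.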
